A study of Mus musculus with 19 samples.

Results

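The expression of 42 genes of mitosis and DNA replication was followed in microglia-enriched brain homogenate of mice that overexpress human alpha-synuclein and of their controls. The genes were taken by name from a list that was chosen with earlier results of these data known. All 42 were matched by gene symbol to Ensembl IDs among the 49671 genes of the deposited table. Of them, 12 serve DNA replication and 30 act in mitosis. RNA-seq libraries came from 19 mice, 1 library per mouse. The 8 HEM mice of 13 months and the 4 HEM mice of 3 months carried full-length wild-type human alpha-synuclein under the murine Thy-1 promoter, inserted on the X chromosome. The controls were 4 WT mice of 13 months and 3 WT mice of 3 months, and the background strain of all groups was B6D2F1/J. The Thy-1 promoter is active mainly in neurons, and the labels do not say in which cells the transgene was on. Sequencing depth, as reads assigned to genes, ran from 63.3 to 95.8 M reads in the 13-month HEM libraries and from 93.2 to 124.5 M in the 13-month WT libraries. At 3 months the range was 74.7 to 112.9 M in HEM and 83.0 to 106.8 M in WT. Values are normalized counts, that is, reads per gene divided by 1 size factor per library. Depth was lower in the 13-month HEM than in the 13-month WT group, and its part in the results was not tested. The 10 microglia markers, such as P2ry12, Tmem119 and Cx3cr1, were present in every group. Between genotypes at 13 months 0 of them passed the test (limma, adjusted p under 0.05). In that comparison 4.87% of all genes tested passed as higher and 7.3% as lower, so 0 of 10 is near the share of all genes. Replicate numbers below are those in the sample titles.

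A dividing cell first loads the Mcm2-7 helicase onto its origins of replication, fires it with Cdc45 and the GINS complex, and copies its DNA with the sliding clamp Pcna and a supply of deoxynucleotides. Cyclin B with Cdk1, the Aurora and Polo kinases, the kinetochore and the spindle motors then carry out mitosis, which ends when the anaphase-promoting complex degrades the cyclins. Genes of the first kind are typically driven by E2F at the G1/S transition, and those of the second by the MuvB complex with B-Myb and FoxM1 in G2 and M. Most adult brain cells are out of the cycle, microglia renew slowly, and granulocyte precursors of the bone marrow divide fast. Mpo (myeloperoxidase) and Prtn3 (proteinase 3) are proteins of the primary granules made by those precursors, and serve here as marrow markers.

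Promoters are shown for the gene with the smallest p-value at 13 months, among those with a promoter, in each of 6 of the 7 roles. Helicase and loading is left out because its smallest p-value was the largest of the 7. That role holds all the replication genes with an E2F match named below, so the windows shown do not represent that motif. Each runs from 250 bases before to 30 bases after the RefSeq transcription start, 5′ to 3′ on the strand of the gene. The build is GRCm38.p6. Capitals mark matches to any of 3 motifs. These are the CCAAT box (CCAAT or ATTGG), the cell cycle genes homology region or CHR (TTTGAA or TTCAAA), and an E2F site (TTTCCCGC, TTTCGCGC, TTTGCCGC or TTTGGCGC, or their reverse complements).
Kif15: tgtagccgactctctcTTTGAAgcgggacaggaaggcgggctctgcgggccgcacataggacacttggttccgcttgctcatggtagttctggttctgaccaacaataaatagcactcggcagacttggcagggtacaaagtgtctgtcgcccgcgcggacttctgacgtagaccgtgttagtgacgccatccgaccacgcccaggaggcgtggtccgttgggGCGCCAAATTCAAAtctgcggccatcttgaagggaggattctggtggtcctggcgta
Mki67: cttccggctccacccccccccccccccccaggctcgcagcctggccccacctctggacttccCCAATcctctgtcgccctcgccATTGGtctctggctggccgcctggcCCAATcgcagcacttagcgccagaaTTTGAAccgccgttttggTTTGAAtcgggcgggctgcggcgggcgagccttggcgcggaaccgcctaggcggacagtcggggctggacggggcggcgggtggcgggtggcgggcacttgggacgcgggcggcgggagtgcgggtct
Cenpa: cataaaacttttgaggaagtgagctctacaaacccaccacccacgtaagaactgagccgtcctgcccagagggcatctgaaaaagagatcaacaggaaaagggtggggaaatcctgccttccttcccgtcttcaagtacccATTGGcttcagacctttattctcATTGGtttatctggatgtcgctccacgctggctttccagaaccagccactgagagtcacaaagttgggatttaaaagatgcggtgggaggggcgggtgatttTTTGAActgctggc
Birc5: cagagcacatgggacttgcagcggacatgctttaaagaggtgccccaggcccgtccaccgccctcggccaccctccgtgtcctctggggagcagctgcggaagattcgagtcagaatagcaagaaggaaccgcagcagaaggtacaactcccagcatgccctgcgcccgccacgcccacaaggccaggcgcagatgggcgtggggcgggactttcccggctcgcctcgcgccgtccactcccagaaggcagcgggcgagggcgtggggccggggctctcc
Rrm2: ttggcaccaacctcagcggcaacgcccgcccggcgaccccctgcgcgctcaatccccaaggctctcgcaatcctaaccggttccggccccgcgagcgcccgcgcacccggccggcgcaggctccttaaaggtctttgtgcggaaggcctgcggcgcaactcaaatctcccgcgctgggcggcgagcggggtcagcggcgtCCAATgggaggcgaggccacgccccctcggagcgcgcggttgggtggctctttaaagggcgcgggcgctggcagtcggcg
Ccnb2: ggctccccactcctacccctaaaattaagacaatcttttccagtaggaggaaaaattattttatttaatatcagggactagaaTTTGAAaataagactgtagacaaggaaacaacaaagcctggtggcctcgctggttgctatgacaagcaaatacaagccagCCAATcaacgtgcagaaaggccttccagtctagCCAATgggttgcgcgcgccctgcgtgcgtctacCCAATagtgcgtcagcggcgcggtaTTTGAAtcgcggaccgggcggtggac
These windows lie at chr9:122950831-122951110 for Kif15 (plus strand), at chr7:135716350-135716629 for Mki67 (minus strand), and at chr5:30666636-30666915 for Cenpa (plus strand). Those of Birc5, Rrm2 and Ccnb2 lie at chr11:117848987-117849266 (plus), chr12:24708004-24708283 (plus) and chr9:70421525-70421804 (minus). Mki67 held 3 CCAAT boxes and 2 CHR matches, the latter starting 116 and 98 bases before the start. Ccnb2 also held 3 CCAAT boxes and 2 CHR matches, and Cenpa held 2 CCAAT boxes and 1 CHR match. The Kif15 window held 2 CHR matches and 1 E2F match, and the E2F match lies directly beside the second CHR without sharing a base. Rrm2 held 1 CCAAT box, and Birc5 held none of these letters in this window.

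Promoters were found for 36 of the 42 genes, 38 windows in all, and the genes without one were Mcm4, Gins2, Ccna2, Aurkb, Kif20a and Tpx2. A CCAAT box was present in 30 of 38 windows (78.95%), against 36.09% of 32851 mouse promoters of the same length. A CHR was present in 19 (50%), against 17.16% of all promoters. An E2F match was present in 7 (18.42%), against 2.12%. CCAAT box and CHR occurred together in 17 windows (44.74%), against 6.4%. Among the 27 windows of mitosis genes, 17 held a CHR (62.96%) and 2 an E2F match (7.41%). Among the 11 windows of replication genes, 2 held a CHR (18.18%) and 5 an E2F match (45.45%). Mcm3, Mcm5, Mcm6, Mcm7 and Cdc6 were the replication genes with an E2F match. A match is a description of the letters and not evidence of binding.

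The comparison of HEM with WT at 13 months asks how the cell cycle genes differed between the 2 groups of aged mice. Of the 42 genes, 35 were higher in HEM (limma, Benjamini-Hochberg adjusted p under 0.05) and 0 were lower. In the same comparison 4.87% of the 23973 genes tested were called higher and 7.3% lower. The remaining 7 genes were above WT as well, without passing the test. They were Mcm2, Mcm3, Mcm7, Gins2, Pcna, Tyms and Cdk1. The median log2 change of the set was 1.52, from 0.17 for Pcna to 2.12 for Mki67, and that of all genes tested was 0.03. The mitosis genes were called in 29 of 30 cases, with a median log2 change of 1.57. The replication genes were called in 6 of 12 cases, with a median of 0.59. In 19 of the 42 genes the lowest HEM library lay above the highest WT library, as did 2.69% of all genes tested. The reverse, all HEM libraries below all WT libraries, held for 0 of the 42 genes and 3.98% of all genes. In bulk RNA of this kind, more cells of a type and more RNA per cell cannot be told apart.

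**Figure D1:**
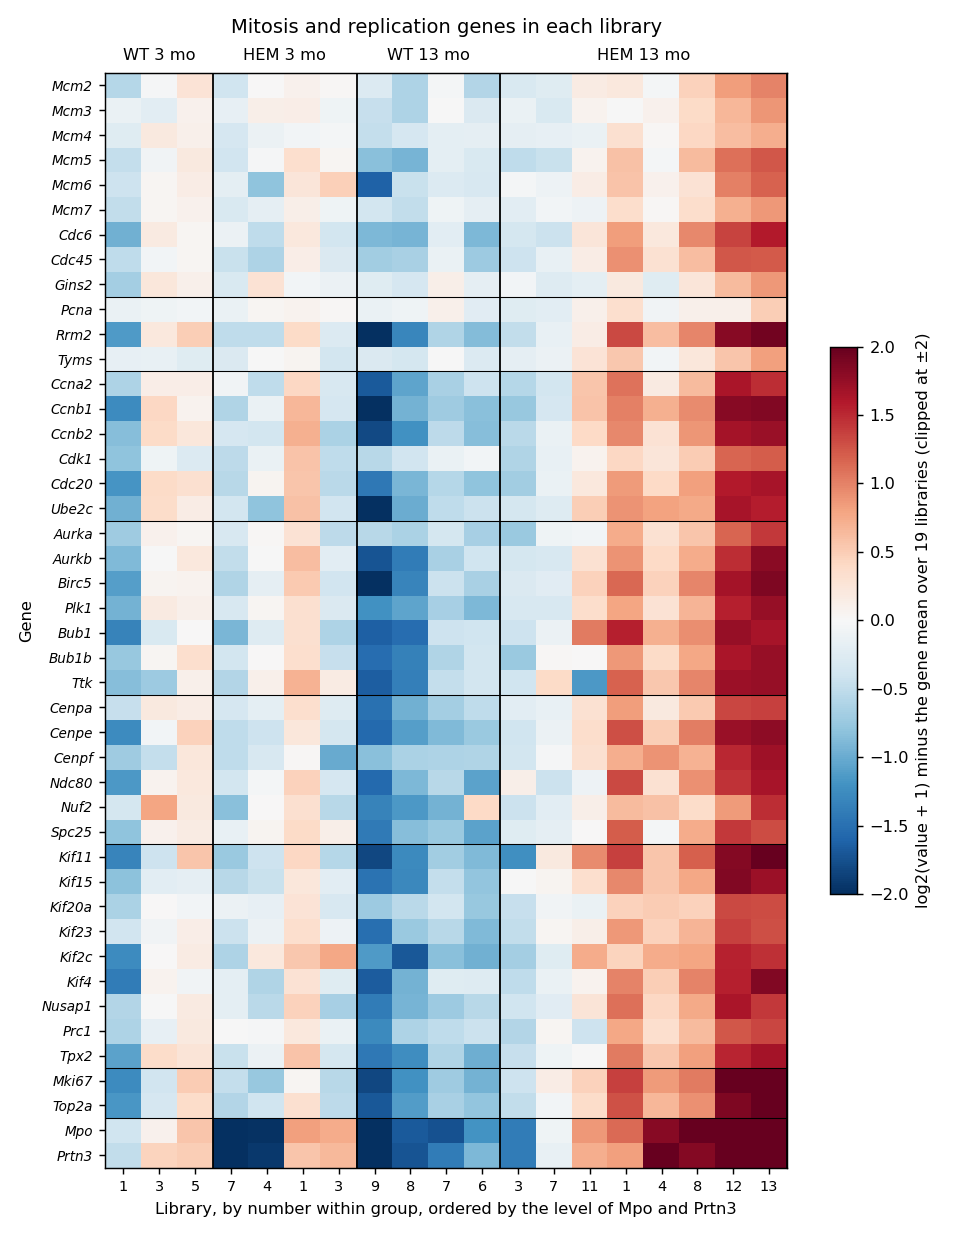
Each row is a gene and each column a library, ordered within its group by the level of Mpo and Prtn3. Colour gives log2(value + 1) minus the mean of the gene over 19 libraries. The 13-month HEM libraries 12 and 13 are the reddest, and the 13-month WT library 9 is the bluest.

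The heatmap of all libraries shows that the set rose and fell in blocks within single mice. Replicate 13 was the highest 13-month HEM library for 32 of the 42 genes and replicate 12 for the other 10. Replicate 3 was the lowest of that group for 35 genes, replicate 7 for 6 and replicate 11 for 1. Among the 13-month WT libraries, replicate 9 was the lowest for 30 genes and replicate 7 the highest for 28. The 13-month HEM group had the highest group mean for all 42 genes, and the 13-month WT group had the lowest for 40.

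The WT libraries weigh heavily on the number of calls. Without WT replicate 9, 19 genes were called (2.57% of all genes), and without WT replicate 8, 24 genes (3.08%). Without HEM replicate 3 there were 39 (4.9%), and without HEM replicate 7 also 39 (5.58%). The median log2 change without WT replicate 9 was 1.32. Calls of Mcm5, Aurka and Mcm4 were the least stable, being lost in 16, 14 and 13 of 19 fits that each left out 1 library, and Nuf2 was lost in 7. Kif20a was lost in 3 fits. The other lost calls were each lost without WT replicate 9 or 8 only. Those lost without either of them were Cdc45, Cdc6, Bub1b, Ttk, Kif4 and Prc1, and those lost without replicate 9 alone were Mcm6, Ube2c, Ccna2, Ccnb1 and Cdc20. HEM replicates 1 and 11 at 13 months and HEM replicate 3 at 3 months stood apart on principal components of all genes, and without these 3 libraries 31 of the 42 genes were called (4.13% of all genes).

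Helicase and loading genes were called in 5 of 9 cases, with a median log2 change of 0.64. Cdc6, which loads the helicase onto origins (chr11:98907801-98923940 in mm10), had values in the 13-month HEM libraries from 260 to 1048, with a median of 519. The 13-month WT libraries, replicates 6 to 9, had 187, 301, 183 and 187. Its log2 change was 1.28 ± 0.34 (SE; n = 8 and 4; limma adjusted p = 0.0194), and the groups overlapped. Cdc45, part of the active helicase (chr16:18780447-18811987), ranged from 311 to 975 in HEM with a median of 573, and measured 251, 378, 264 and 256 in WT. It was higher by 1.03 ± 0.28 on the log2 scale (SE; limma adjusted p = 0.0192), again with overlap. Replicate 7 was the highest WT library for both genes. Of the helicase subunits, Mcm6 differed by 1.06 ± 0.29 (SE; limma adjusted p = 0.0213), Mcm5 by 0.90 ± 0.29 (0.0496) and Mcm4 by 0.50 ± 0.16 (0.0471).

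The other 3 subunits did not pass the test. Mcm2 measured from 1893 to 4641 in HEM with a median of 2662, against 1545, 2273, 1528 and 1922 in WT (0.64 ± 0.22 on the log2 scale, limma adjusted p = 0.0661). Mcm3 measured from 2212 to 5038 with a median of 2891, against 2243, 2727, 1787 and 2002 (0.54 ± 0.18, adjusted p = 0.0533 by limma). Mcm7 measured from 2675 to 5703 with a median of 3567, against 2756, 2932, 2207 and 2406 (0.53 ± 0.18, adjusted p = 0.0663 by limma). In each case the lowest HEM libraries fell inside the WT range. DESeq2 called all 3, with adjusted p of 0.0224, 0.0204 and 0.0255. Gins2, a GINS subunit, had a HEM median of 321 (255 to 557) and WT values of 269, 330, 242 and 259. Its log2 difference was 0.31 ± 0.23 (SE; limma adjusted p = 0.458), and 67.32% of its exon bases are also exons of Gse1 on the opposite strand, whose reads could be counted with it.

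Clamp and nucleotide genes split widely. Rrm2, the cell-cycle-regulated subunit of ribonucleotide reductase (chr12:24708241-24714146), ranged from 795 to 4232 in HEM with a median of 1953. WT replicates 6 to 9 measured 610, 734, 451 and 267, so every HEM library lay above every WT library. The log2 change was 1.98 ± 0.43 (SE; limma adjusted p = 0.00588), the largest of the replication genes. Pcna, the sliding clamp (chr2:132249162-132253314), had a HEM median of 8458 (6650 to 11131) and WT values of 6702, 8497, 7413 and 7155. All 4 WT libraries lay inside the HEM range, while HEM replicates 1 and 13, at 10003 and 11131, lay above every WT library. The log2 difference was 0.17 ± 0.11 (SE; limma adjusted p = 0.416). Tyms, thymidylate synthase (chr5:30058202-30073617), had a HEM median of 826 (614 to 1225) and WT values of 577, 692, 546 and 571. Its log2 difference was 0.49 ± 0.17 (SE; limma adjusted p = 0.0683), and DESeq2 called it (adjusted p = 0.0189).

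Per kilobase of exon, Pcna had the highest normalized count of the 42 genes in every group. Its level was 3517 per kilobase in 13-month HEM and 3101 in 13-month WT, ahead of Mcm3 at 871 and 584. The lowest levels per kilobase in those groups belonged to Ttk, at 65.5 and 19.3. Pcna was also the steadiest gene across 13-month HEM mice, with a highest library 1.67 times the lowest, against 5.78 times for Mki67 and 11.2 times for Kif11. Pcna, Tyms, Ccnb1, Ccnb2 and Kif4 have pseudogenes that could take or lend reads, and these 5 levels are uncertain to that extent.

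**Figure D2:**
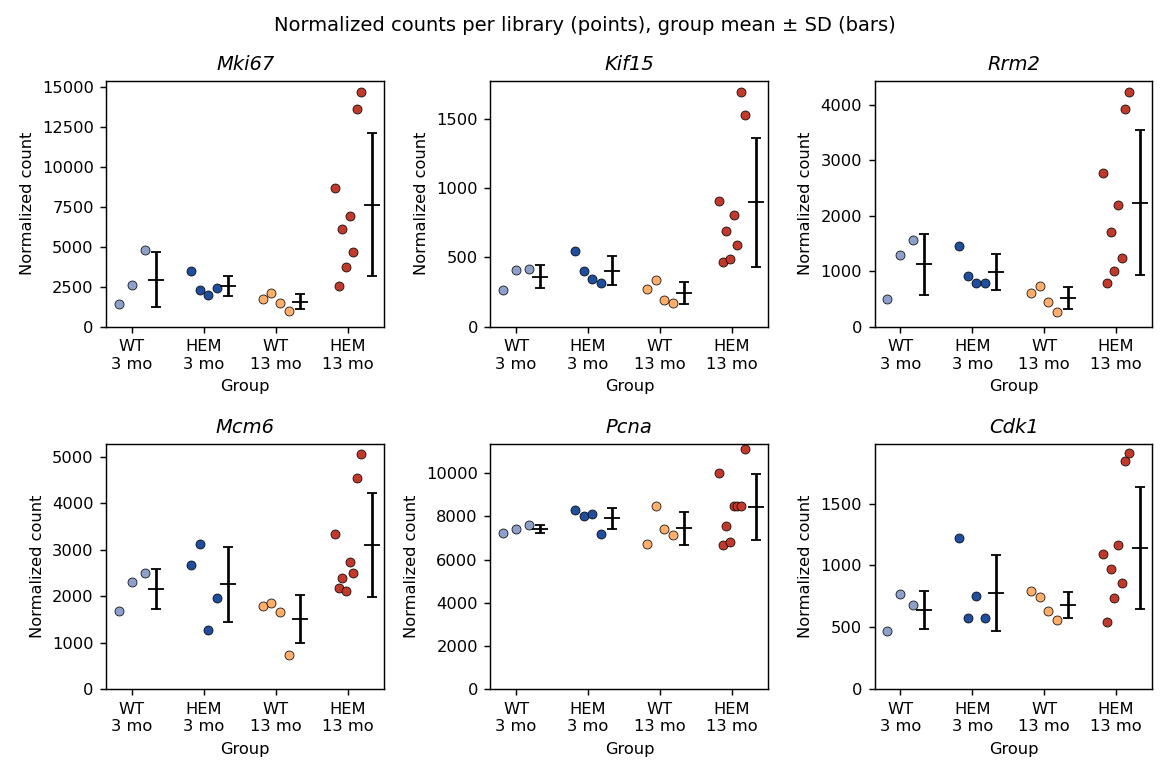
Normalized count (y axis, linear, from 0) of 6 genes in each library (points), by group (x axis), with the mean and SD beside each group (bars). The 13-month HEM points of Mki67, Kif15, Rrm2 and Mcm6 lie above all 13-month WT points, while those of Pcna and Cdk1 overlap them.

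Cyclins, Cdk1 and genes of the anaphase-promoting complex were called in 5 of 6 cases, with a median log2 change of 1.63. Ccnb2, cyclin B2 (chr9:70407692-70421547), ranged from 428 to 2051 in HEM with a median of 983, against 342, 430, 268 and 176 in WT. The log2 change was 1.76 ± 0.40 (SE; limma adjusted p = 0.00729), and only the lowest HEM library, replicate 3, was below a WT library. Ube2c, the ubiquitin-conjugating enzyme of the complex (chr2:164769898-164778822), ranged from 659 to 2636 with a median of 1452, against 625, 590, 423 and 178. The groups did not overlap, and the log2 change was 1.74 ± 0.41 (SE; limma adjusted p = 0.00921), or 1.34 without WT replicate 9. Of the Ube2c exon bases, 22.77% are also exons of Tnnc2 on the opposite strand. Ccnb1, Ccna2 and Cdc20 differed by 1.88, 1.53 and 1.52 on the log2 scale.

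Cdk1, the kinase these cyclins activate (chr10:69335146-69352938), stood out as the 1 mitosis gene not called. Its values in HEM ran from 543 to 1912 with a median of 1035, and WT had 793, 748, 630 and 558. Replicate 3 of HEM lay below all 4 WT libraries. The log2 difference was 0.64 ± 0.29 (SE; limma adjusted p = 0.174), against 1.88 ± 0.45 for its partner Ccnb1.

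Mitotic kinases and checkpoint genes were all called, 7 of 7, with a median log2 change of 1.59. Birc5 (survivin), a subunit of the chromosomal passenger complex (chr11:117849251-117855743), ranged from 455 to 2034 in HEM with a median of 934, against 356, 414, 222 and 136 in WT. The log2 change was 1.86 ± 0.40 (SE; limma adjusted p = 0.00586). Plk1, the Polo kinase of mitotic entry (chr7:122159439-122169873), ranged from 414 to 1721 with a median of 741, against 275, 324, 248 and 221. It was higher by 1.56 ± 0.34 (SE; limma adjusted p = 0.00601). Neither gene overlapped between groups. The checkpoint kinase genes Bub1, Bub1b and Ttk differed by 1.87, 1.55 and 1.59, and the Aurora kinases Aurkb and Aurka by 1.66 and 0.96.

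Centromere and kinetochore genes were called in 6 of 6 cases, with a median of 1.49. Cenpa, the histone H3 variant that marks centromeres (chr5:30666777-30674830), ranged from 982 to 2936 in HEM with a median of 1516, against 796, 705, 583 and 403 in WT. The log2 change was 1.44 ± 0.28 (SE; limma adjusted p = 0.00354). Spc25, an Ndc80 complex subunit (chr2:69193895-69206194), ranged from 277 to 879 with a median of 439, against 155, 196, 181 and 122. It was higher by 1.55 ± 0.32 (SE; limma adjusted p = 0.00461). Every HEM library exceeded every WT library for both genes. Nuf2, of the same complex, overlapped because WT replicate 6 measured 848 while the other WT libraries measured 333, 289 and 253.

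Kinesins and spindle genes were called in 9 of 9 cases, with a median of 1.52. Kif15, a spindle kinesin that can share the work of Kif11 (chr9:122951046-123018733), had the smallest p-value of the 42. It ranged from 469 to 1697 in HEM with a median of 746, against 272, 336, 190 and 168 in WT, and its log2 change was 1.79 ± 0.32 (SE; limma adjusted p = 0.00253). Kif23, the centralspindlin motor of cytokinesis (chr9:61915905-61946774), ranged from 646 to 2365 with a median of 1363, against 496, 620, 543 and 318. It was higher by 1.47 ± 0.29 (SE; limma adjusted p = 0.00362), with no overlap. Kif11, which slides spindle poles apart, had a larger change of 2.05 ± 0.49 but overlapped WT, because HEM replicate 3 measured 176.

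Of the chromosome organisation genes both were called. Mki67, the Ki-67 antigen that coats mitotic chromosomes and marks cells in cycle (chr7:135689784-135716361), ranged from 2545 to 14706 in HEM with a median of 6537. WT replicates 6 to 9 measured 1755, 2075, 1455 and 958, all below the HEM range. The means were 7640 ± 4473 (SD, n = 8) and 1561 ± 475 (SD, n = 4), and the log2 change was 2.12 ± 0.40 (SE; limma adjusted p = 0.00315). Top2a, topoisomerase II alpha (chr11:98992943-99024189), ranged from 1872 to 10827 with a median of 4569, against 1525, 1690, 1214 and 818. It was higher by 1.88 ± 0.40 (SE; limma adjusted p = 0.00551), without overlap.

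**Figure D3:**
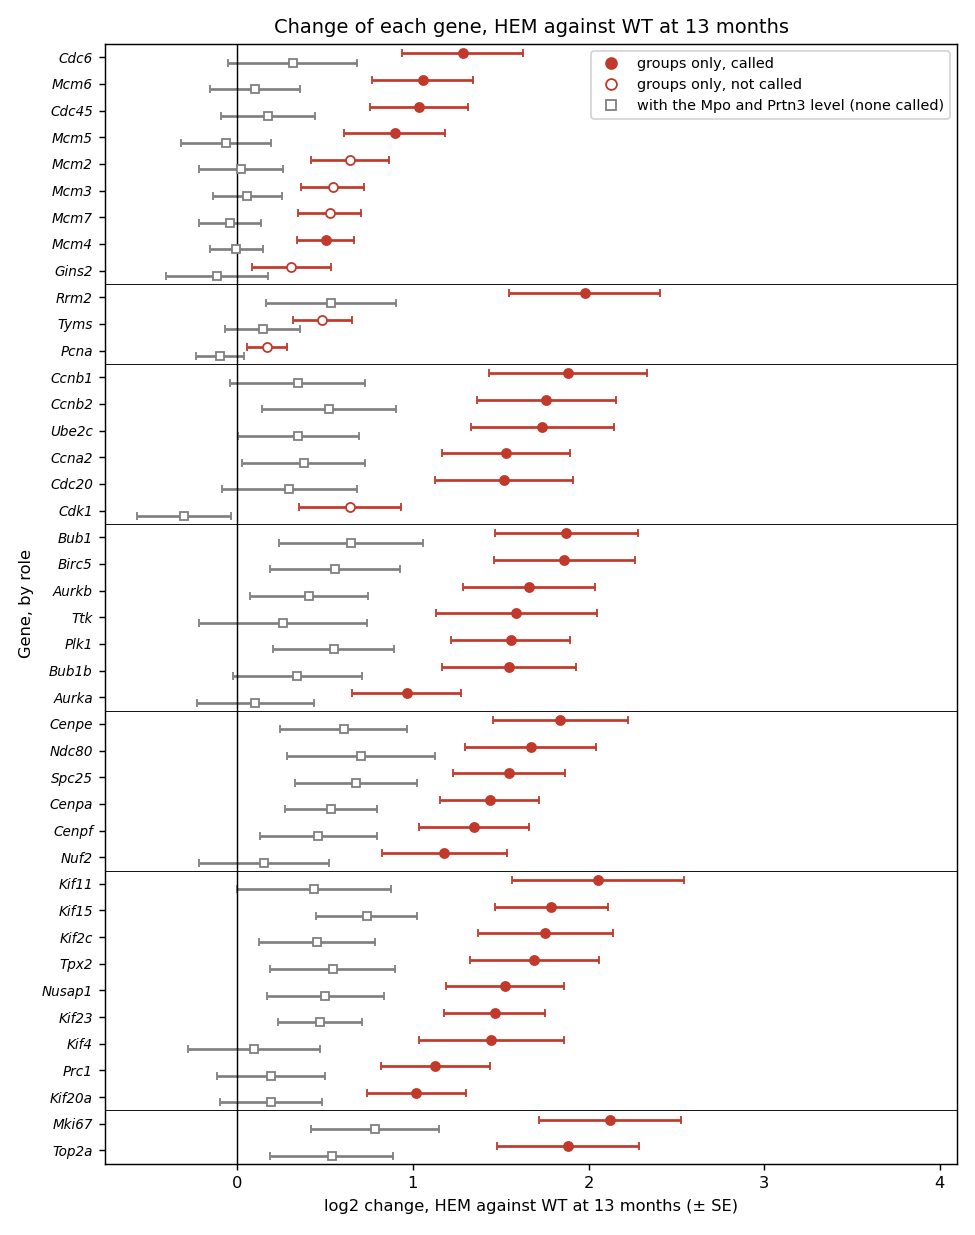
Log2 change of each gene, HEM against WT at 13 months, with its SE (x axis), by role (blocks on the y axis). Circles come from the model of groups only and are filled where called. Squares add the level of Mpo and Prtn3 to the model, and lie closer to 0 than the circles.

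At 3 months the genes did not pass the test. Of the 42 genes 0 were called, as were 0.0% of all genes, and 0 had an unadjusted p under 0.05 (limma). DESeq2 and edgeR also called 0. The log2 differences ran from -0.47 for Nuf2 to 0.59 for Kif2c, with a median of 0.06, and 31 were positive and 11 negative. Mki67 measured 3461, 2298, 1996 and 2420 in HEM replicates 1, 3, 4 and 7, and 1417, 2581 and 4796 in WT replicates 1, 3 and 5. The HEM values lay inside the WT range, and the log2 difference was -0.06 ± 0.50 (SE; n = 4 and 3). Kif15 measured 549, 404, 343 and 318 in HEM against 266, 406 and 413 in WT, and Cdk1 measured 1224, 576, 751 and 573 against 472, 770 and 682. HEM replicate 1 was the highest HEM library for 38 of the 42 genes, and WT replicate 1 the lowest WT library for 40. The groups were apart for 0 of the 42 genes, while 3.08% of all genes had every HEM library above every WT library and 2.78% had every one below.

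The difference between the genotype effects at the 2 ages, which shares its libraries with both comparisons, was positive for all 42 genes. By limma 0 were called, as were 0.0% of all genes. The median was 1.45 on the log2 scale, 28 genes had an unadjusted p under 0.05, and the highest was Mki67 at 2.18 ± 0.65 (SE; limma adjusted p = 0.127). With edgeR 0 were called and 33 had an unadjusted p under 0.05. DESeq2 called 12, while it called 1.56% of all genes higher. The calls thus differed between tools. With the level of Mpo and Prtn3 added to the limma model, the median was 0.02. In that fit 0 of the 42 genes had an unadjusted p under 0.05.

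Across age the genotypes moved in opposite directions, without calls by limma and before the level of Mpo and Prtn3 entered the model. In HEM mice all 42 genes were higher at 13 than at 3 months, with a median log2 difference of 0.69, 17 unadjusted p-values under 0.05 and 0 calls, against 0.934% of all genes called higher. The lowest adjusted p was 0.0685, for Cenpf (1.13 ± 0.31, limma). In the same comparison edgeR called 0, with 28 unadjusted p under 0.05, and DESeq2 called 8 (3.26% of all genes). Without 13-month HEM replicate 3, limma called 4 (1.72% of all genes). The ages did not separate fully in HEM for any of the 42 genes, and did so for 1.44% of all genes upwards and 1.36% downwards. In WT mice 40 of the 42 genes were lower at 13 months, with a median of -0.71, 3 unadjusted p-values under 0.05 and 0 calls, against 0.246% of all genes called lower. Both edgeR and DESeq2 called 0 there, with 6 unadjusted p-values under 0.05 each. The WT groups fitted alone gave 11 such p-values by limma. With single libraries left out, the median ran from -0.97 without 3-month WT replicate 1 to -0.38 without 3-month WT replicate 5. Those fits had 19 and 0 unadjusted p-values under 0.05. Cenpa and Kif23 were the genes whose 13-month WT libraries all lay below the 3-month WT libraries, as did 6.46% of all genes, and 0 of the 42 genes (8.83% of all genes) had them all above. Cenpa went from 826, 1301 and 1251 at 3 months to 796, 705, 583 and 403 at 13 months in WT. The 13-month WT libraries enter the WT age comparison and the 13-month genotype comparison alike, so the pair is not independent. With the level of Mpo and Prtn3 as a covariate, the median age difference was 0.004 in HEM and 0.06 in WT. In that model 0 of the 42 genes were called higher at either genotype, as were 0.0209% of all genes in each. Any age difference that follows the common slope on Mpo and Prtn3 is removed by it too.

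In HEM mice of either age and in 13-month WT mice, Mpo and Prtn3 varied between mice more than any of the 42 genes did. Mpo ranged from 1666 to 44558 in 13-month HEM libraries with a median of 12559, and measured 1925, 1318, 1369 and 487 in 13-month WT libraries. Its log2 change was 3.23 ± 0.74 (SE; limma adjusted p = 0.00806). Prtn3 ranged from 614 to 13371 with a median of 4342, against 873, 616, 492 and 195 (2.98 ± 0.74, limma adjusted p = 0.0125). The call of Prtn3 was lost without WT replicate 9. In HEM mice of 13 months the highest library had 26.7 times the Mpo of the lowest. At 3 months Mpo measured 7807, 7329, 1120 and 911 in HEM and 3348, 4669 and 6445 in WT, so the HEM values spread to both sides of WT.

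The marrow level of a library is defined here as the mean of log2(value + 1) of Mpo and Prtn3. It ran from 9.98 (replicate 3) to 14.58 (replicate 13) in 13-month HEM mice, from 8.27 to 10.34 in 13-month WT, from 9.09 to 12.08 in 3-month HEM and from 10.94 to 11.91 in 3-month WT. In a model with a mean for each group and 1 common slope on the marrow level, the slope was positive for all 42 genes. It was called for 27 of them, against 0.88% of all genes (limma, adjusted p under 0.05), and 41 had an unadjusted p under 0.05. The median slope was 0.33 log2 units per log2 unit of marrow level, from 0.09 for Pcna to 0.52 for Kif11, and the median of all genes was -0.003.

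Mitosis genes were called in 21 of 30 cases with a median slope of 0.38, and replication genes in 6 of 12 with a median of 0.19. Cyclins, Cdk1 and the anaphase-promoting complex were called in 6 of 6 cases (median 0.40), kinesins and spindle genes in 8 of 9 (0.34), and both chromosome organisation genes were called (0.43). Kinases and checkpoint genes were called in 3 of 7 cases (0.40), and centromere and kinetochore genes in 2 of 6 (0.30). Kif23 had the lowest adjusted p, with a slope of 0.32 ± 0.054 (SE; limma adjusted p = 0.00581). Cdk1, not called between genotypes, had a slope of 0.30 ± 0.060 (adjusted p = 0.0168 by limma). Spc25, with one of the clearer genotype changes, had 0.28 ± 0.079 (adjusted p = 0.137 by limma).

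Single HEM libraries of 13 months carried much of the slope test. Without replicate 3, 1 gene was called (0.154% of all genes), without replicate 13, 5 (0.53%), without replicate 12, 13 (0.551%), and without replicate 7, 14 (0.559%). The median slope in those 4 fits stayed between 0.30 and 0.34. Without the 3 libraries that stood apart, 36 genes were called (1.24%).

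**Figure D4:**
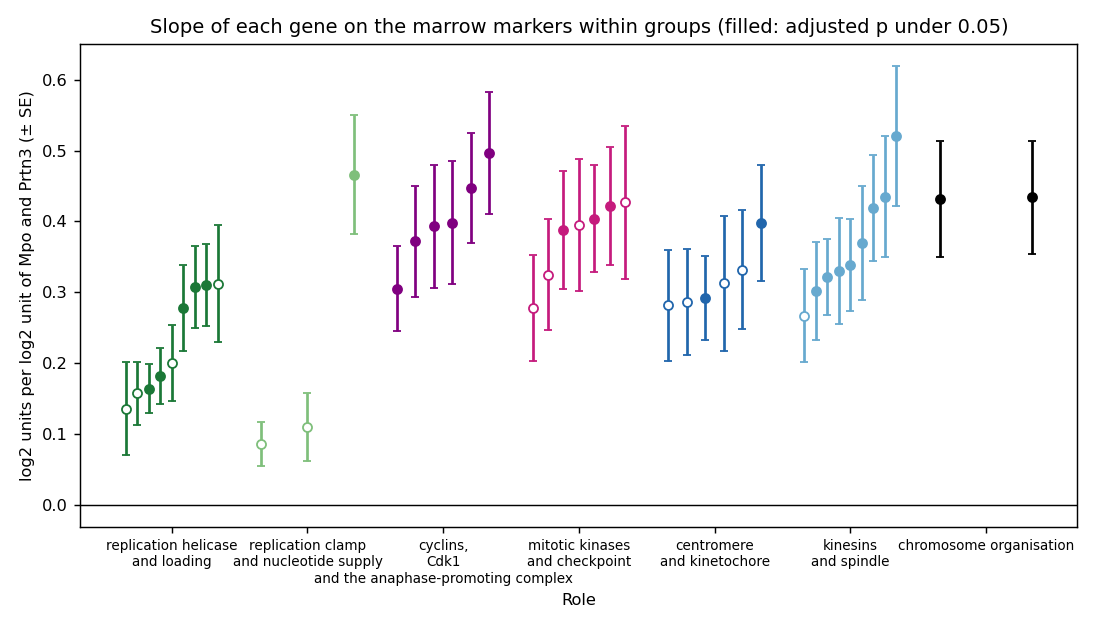
Slope of each gene on the marrow level within groups, with its SE (y axis, log2 units per log2 unit), ordered within each role (x axis). Filled points are called. All 42 slopes lie above 0, and Pcna, Tyms and Gins2 are among the lowest.

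Within the 13-month HEM group alone, the 1 group with enough libraries, each gene was correlated with the marrow level over 8 mice. Pearson's r ran from 0.71 for Gins2 to 0.96 for Cenpf, with a median of 0.887, and the median over all genes was 0.0019. An unadjusted exact permutation p under 0.05 was reached by 41 of the 42 genes, and by 5.27% of all genes with a positive r. After adjustment over 23970 genes 0 were called, the lowest adjusted p being 0.277, and 8 libraries cannot give an exact p below 2.48e-05. For Mki67 r was 0.924 (exact permutation p = 0.00126, adjusted p = 0.43) and Spearman's rho was 0.929 (exact permutation p = 0.00223, adjusted p = 0.377). Without replicates 3 and 13, the libraries farthest from the median marrow level, r of Mki67 was 0.806, and all 42 genes stayed positive with a median of 0.787 and a lowest value of 0.30 for Pcna.

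**Figure D5:**
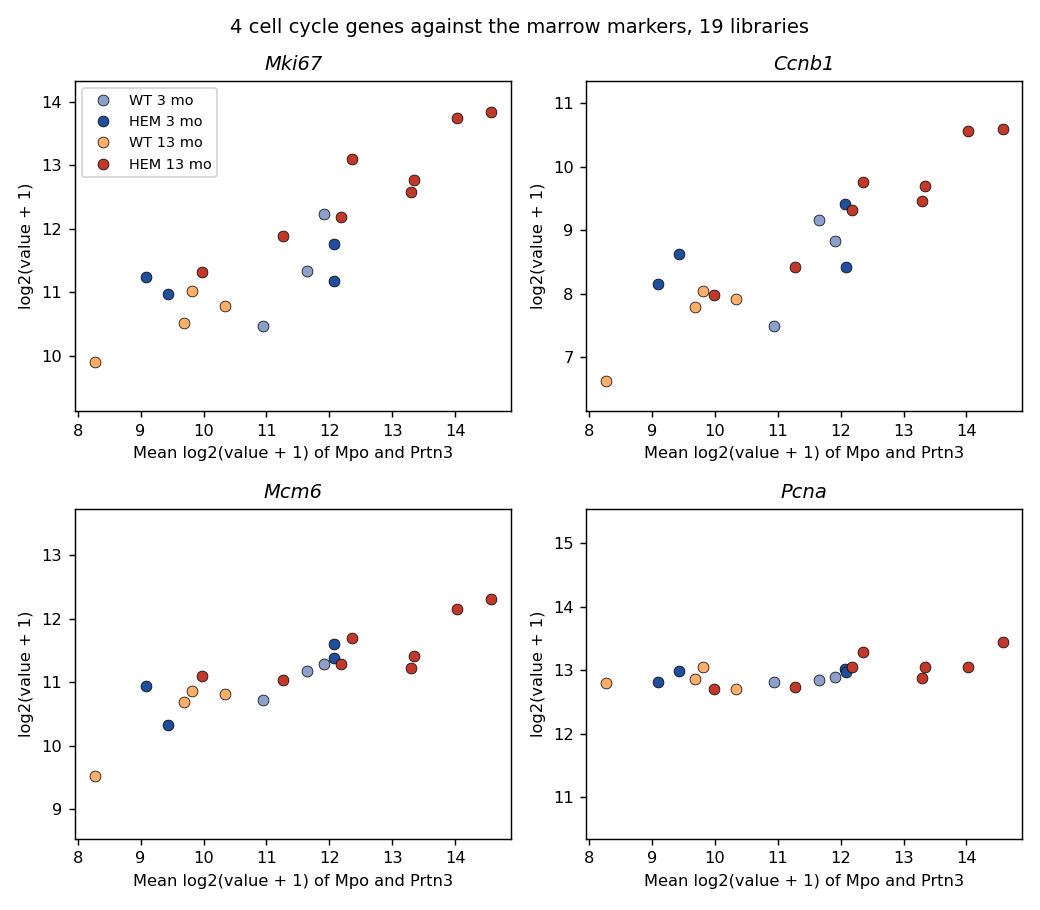
Log2(value + 1) of Mki67, Ccnb1, Mcm6 and Pcna (y axes, same height in log2 units) against the marrow level (x axes) in 19 libraries, coloured by group. Mki67 and Ccnb1 climb along the 13-month HEM libraries from replicate 3 at 9.98 to replicate 13 at 14.58, and Pcna stays nearly level.

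With the marrow level in the model, the 13-month genotype difference was smaller for each of the 42 genes. The median fell from 1.52 to 0.35, with 36 genes positive and 6 negative, 0 were called, and 2 had an unadjusted p under 0.05. These were Kif15 at 0.74 ± 0.29 (SE; limma adjusted p = 0.252) and Mki67 at 0.78 ± 0.36 (adjusted p = 0.351 by limma). The same model called 0.0% of all genes, so the loss of calls was not particular to this set. The medians were 0.46 for mitosis and 0.04 for replication genes, and Cdk1 stood at -0.30. Mpo and Prtn3 themselves differ between the genotypes, so any genotype difference that follows the common slope on them is removed too. Only the part of each gene that follows that slope is removed, and the calls of the slope depended on single libraries. At 3 months the same model gave a median genotype difference of 0.32, against 0.06 without the marrow level. There 2 genes had an unadjusted p under 0.05 and 0 were called higher, as were 0.0% of all genes.

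Libraries with like marrow levels, picked after the values were seen, did not always have like cell cycle values. The share over all genes was not computed for the counts below, so they cannot be read as particular to this set. HEM replicate 3 of 13 months, at 9.98, lay inside the WT range of marrow levels. In that library 38 of the 42 genes were above the WT mean and 19 above every WT library. Those 19 are the same genes whose groups did not overlap, so this count is not a separate result. Pcna, Cdk1 and Aurka were below every WT library. At 3 months HEM replicates 1 and 3 had marrow levels of 12.07 and 12.08, and 39 of the 42 genes were higher in replicate 1, with Ccnb1 at 681 and 340. HEM replicates 1 and 4 of 13 months were less alike, with marrow levels of 12.36 and 13.30, and 38 of the 42 genes were higher in replicate 1. HEM replicate 1 of 13 months and HEM replicate 3 of 3 months were among the libraries that stood apart on principal components.

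Other genes of the cell cycle were compared at 13 months in the same way, where 4.87% of all genes were called higher and 7.3% lower. Of 48 further mitosis genes 39 were higher and 0 lower, with a median log2 change of 1.35. Kif14, a kinesin of cytokinesis, differed by 2.09 ± 0.35 (SE; limma adjusted p = 0.00213), from 83.0 ± 7.07 (SD, n = 4) in WT to 404 ± 224 (SD, n = 8) in HEM. Smc4, a condensin subunit, differed by 1.09 ± 0.17 (adjusted p = 0.00176 by limma). Of 34 further replication genes 13 were higher and 1 lower, with a median of 0.48. Chaf1b, of the chromatin assembly factor, differed by 1.12 ± 0.22, and Dtl, a substrate receptor for the ligase that destroys Cdt1, by 1.62 ± 0.36. The lower gene, named after its value was seen, was Rpa1 at -0.40, a subunit of the single-strand binding complex. In a list this short, 1 lower gene is near the share of all genes.

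Among 14 transcription factors of the cycle, 7 were higher and 0 lower, against 4.87% and 7.3% of all genes, with a median of 0.44. E2f8, a repressor of the E2F family, differed by 1.88 ± 0.41 and E2f2, an activator, by 1.22 ± 0.27 (limma adjusted p of 0.00609 and 0.00654). Of 18 G1 cyclins, kinases and inhibitors, 8 were higher and 1 lower. Cdkn1b, the inhibitor p27, rose by 0.35 ± 0.058 and Btg1, an antiproliferative gene, by 0.88 ± 0.15 (limma adjusted p of 0.00213 and 0.00241). The lower one, named after its value was seen, was the inhibitor Cdkn1c at -0.96, and 1 of 18 is near the share of all genes called lower. On the marrow level, slopes were called for 16 of 48 further mitosis genes, 3 of 34 further replication genes (Dtl, Mcm10 and Uhrf1), 4 of 14 transcription factors (E2f8, E2f2, Mybl2 and Tfdp1) and 0 of 18 G1 genes (6 unadjusted p under 0.05 by limma, 0 calls by edgeR, 1 by DESeq2). Of all genes tested 0.88% had a called slope, so 0 of 18 is near the share of all genes. The slope of Cdkn1b was 0.015 ± 0.019 log2 units per log2 unit.

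Most markers of granulocyte precursors, mature neutrophils and erythroid precursors were also higher in HEM at 13 months, and their part in the result was not tested. In that comparison 4.87% of all genes tested were called higher and 7.3% lower. Granulocyte precursor markers, Mpo and Prtn3 among them, were higher in 8 of 8 cases, with a median log2 change of 3.15. Their summed level ran from 4851 to 90513 in HEM, median 29695, and from 1332 to 4784 in WT. Ctsg, cathepsin G, differed by 3.28 ± 0.68 and Gfi1, a granulocytic transcription factor, by 2.17 ± 0.42 (limma adjusted p of 0.00482 and 0.00354). Mature neutrophil markers were higher in 9 of 10 cases (median 1.85), with sums of 65663 to 538942 in HEM and 41355 to 108444 in WT. The granule genes Camp and Ngp led them at 2.42 ± 0.53 and 2.24 ± 0.50. Erythroid precursor markers were higher in 8 of 10 cases (median 2.03), with sums of 12166 to 28612 in HEM and 6343 to 14532 in WT. Car1 and Slc4a1, genes of red cell carbon dioxide and anion transport, differed by 3.08 ± 0.65 and 2.04 ± 0.46. Of these 28 markers 0 were at 0 in every library.

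Monocyte markers were higher in 5 of 8 cases (median 1.31), with sums of 49152 to 115108 in HEM and 38985 to 49901 in WT, led by Ly6c2 at 1.65 ± 0.31 and Plac8 at 1.87 ± 0.41. T and NK cell markers were higher in 5 of 10 cases (median 1.28), with sums of 7804 to 33684 and 3443 to 10963, led by Nkg7 at 1.49 ± 0.30 and Gzma at 1.39 ± 0.37. Blood stem and progenitor markers were higher in 2 of 7 cases, Flt3 at 1.24 ± 0.25 and Myb at 1.66 ± 0.46, with sums of 24575 to 34070 and 22922 to 29669. B cell precursor markers had 0 of 10 calls by limma and edgeR (3 unadjusted p under 0.05 in each) and 2 by DESeq2, with a median of 0.70 and sums of 8374 to 35411 and 7513 to 16886. By limma 4.87% of all genes were called higher and 7.3% lower, so 0 of 10 is near the share of all genes.

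Markers of cell types of the brain had 0 calls by limma and edgeR in that comparison, and DESeq2 called 1 neural stem or neuroblast gene. By limma 4.87% of all genes were called higher and 7.3% lower, so 0 calls in lists this short is near the share of all genes. Microglia markers had 0 of 10 called and 0 with an unadjusted p under 0.05 (median -0.20), with sums of 417881 to 1209972 in HEM and 621935 to 1067208 in WT. Neural stem and neuroblast markers had 0 of 8 called (1 unadjusted p under 0.05, sums of 7297 to 13823 and 5947 to 9745). Oligodendrocyte precursor markers had 0 of 7 called (2 unadjusted, sums of 30877 to 52241 and 29991 to 44663), and endothelial markers 0 of 7 (0 unadjusted, sums of 56584 to 206976 and 60013 to 181842). At 3 months none of the lists held a called gene, and the medians of the granulocyte precursor, neutrophil and erythroid lists were -0.70, -0.60 and -0.83. The 42 genes of mitosis and replication had a median of 0.06 in that comparison.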

How the data were processed

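RNA-seq was measured in 19 libraries. Per the labels' protocols, microglia were enriched from dissected brains, RNA was isolated on AllPrep columns, and sequencing libraries were built with a NEBNext Ultra II kit. The submitters' processing notes list Trimmomatic, HISAT2, featureCounts and DESeq2, with build mm10, while versions, annotation and strand setting are not given in the sources used here. The unit of the deposited table is a normalized signal, the authors' counts per gene after division by 1 size factor for each library. The files show it, since their entries were whole multiples of a step in 100% of cases at a tolerance of 0.01. Per-library values came from each sample's own file.

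Symbols and positions came from GENCODE M21 (mm10), which named 99% of the IDs. Genes that reached a value of 10 in 3 libraries or more (23973, all 42 genes included) were tested with limma-trend 3.58.1 (R 4.3.3, robust, two-sided, Benjamini-Hochberg) on log2(value + 1) in 1 model of 4 groups. The fold changes are on that scale, which understates changes of low genes. The slope model added the mean log2 level of Mpo and Prtn3. Called means an adjusted p under 0.05. The p-values measure the spread between these mice. Alternatives were edgeR 4.0.16 and DESeq2 1.42.0 on the recovered reads, pseudocounts of 0.5 and 10, other low filters (none and 50) and TMM scaling. Further fits used the compared groups alone, the marrow level as a covariate, or the number in the sample title as a block. Others left out the 3 libraries that stand apart, or each library in turn. The fits were tested on simulated data. Replicate libraries differed beyond sampling noise.

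The genes, the lists and the tests were chosen with earlier results of these data known. Values are given in full for Mki67, for the 2 genes of each role with the smallest p at 13 months, for genes not called, and for the 2 called genes of each other list with the smallest p. Exons of 12 of the 42 genes overlap another gene. Promoters are from RefSeq (GRCm38.p6).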

Additional observations from a re-analysis of the deposited data

Results flagged for a closer look

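In 132 sets of values (the 42 genes, Mpo and Prtn3 in the 3 groups of 4 to 8 libraries), 5 held a library far from the others by Dixon's ratio on log2 values, where chance gives about 1 in 20. Mcm6 in the 13-month WT group had its lowest value of 733 in replicate 9, with the nearest library at 1656. Cenpf in the same group had its lowest value of 363 in replicate 9, with the nearest at 416. Cdc6 and Cdc45 in that group had their highest values, 301 and 378, in replicate 7, with the nearest at 187 and 264. Mcm2 in the 3-month HEM group had its lowest value of 1777 in replicate 7, with the nearest at 2343. Replicate 9 of the 13-month WT group also had the lowest marrow level of all 19 libraries, at 8.27.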

How the results depend on the processing

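Of the 42 genes, 35 were called higher at 13 months, and the count was 0 with the marrow level as a covariate and 19 to 39 with single libraries left out. Beside these and the replicate block below, the alternatives gave 27 (compared groups alone) to 39 (DESeq2). For age in HEM mice DESeq2 gave 8 against 0, and leaving out single libraries gave 0 to 4. For the difference of the genotype effects DESeq2 gave 12 against 0. For the slope on the marrow level, leaving out single libraries gave 1 to 34 against 27. The cause of these shifts was not tested. With the marrow level as a covariate, Mcm7 (-0.039), Gins2 (-0.11), Pcna (-0.099), Cdk1 (-0.30), Mcm5 (-0.066) and Mcm4 (-0.0045) were negative at 13 months. Of these 6, Mcm4 and Mcm5 had been called without the covariate and the other 4 had not.

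With the number in the sample title as a replicate block, the count was 0 at 13 months (0.0% of all genes, median 1.02, 11 unadjusted p under 0.05). For the slope it was also 0 (0.0375% of all genes). Mki67 changed by 1.57 (adjusted p = 0.32, limma), and Pcna stood at -0.081. HEM and WT shared only numbers 7 and 8 at 13 months. The blocks leave less data to estimate the spread, so these counts of 0 cannot be told apart from a loss of power. Same-numbered HEM and WT libraries deviated with correlations of 0.107 and 0.126 at 13 months (numbers 7 and 8) and 0.021 and -0.038 at 3 months (numbers 1 and 3). Same-numbered HEM libraries of the 2 ages had -0.068, 0.022, 0.114 and 0.173 (numbers 1, 3, 4 and 7). The labels name no shared animal, litter or day, and not every correlation was over 0.1, so the numbers were not taken to pair the mice. That does not settle whether they do. Over the 30 mitosis genes the SE of the 13-month log2 difference was 0.28 to 0.49, and their lowest normalized count in any library was 55 (Ttk). Whether the number of mice or the depth limits the precision more was not tested.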
